A study of Mus musculus with 22 samples.

Results

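Counts of 10 genes were followed across the striatum and white adipose tissue (WAT) of mice given thyroid hormone (TH). The genes were Gls2, Wif1, Cyp11a1, Hs6st1, Flywch2, Sema7a, Itga7, Nrgn, Abcd2 and Camk4, chosen as known targets of the hormone in brain or as genes that rose in these striatum libraries. Each is 1 of 55341 rows of the striatum table and 1 of 47643 rows of the WAT table. Because striatum values helped to choose them, their striatum levels and changes are a description, and counts of calls there are given only beside the share of all genes called. The rule used no WAT value, so adjusted p-values are given for WAT, although the genes were picked with results of both tissues known.

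All animals were labelled as C57BL/6J wild-type males of 8 weeks. Control libraries of both tissues came from mice labelled hypothyroid after 2 weeks of propylthiouracil (PTU), a drug that blocks the synthesis of thyroid hormone. The other libraries came from mice treated with TH and taken 12 h or 24 h later for striatum and 6 h or 24 h later for WAT, and their labels do not mention PTU. TH was a single intraperitoneal injection of T3 and T4 together, per the study's methods. Those methods give PTU in the food for WAT and no procedure for hypothyroidism for striatum, so whether the striatum mice given TH had also received PTU is not settled, although the series' own design text speaks of PTU-treated animals for both tissues. There were 2 PTU, 4 TH 12 h and 4 TH 24 h libraries of striatum, with 8044701 to 10147160 counts each, and 4 libraries per group of WAT, with 17285956 to 26946573 counts. No label states that libraries of a group came from separate animals, so errors measure the spread between libraries.

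The striatum libraries did not all match their labels. Of the 10, 6 held 22070 to 33690 normalised counts of Xist, the RNA of X inactivation in females, and at most 6.84 of 4 Y-linked genes together, although every animal was labelled male. These were PTU replicate 6, TH 12 h replicate 1 and all 4 TH 24 h libraries, so the 12 h and 24 h groups differed in this as well as in time. Summed counts of 10 markers of cortical excitatory neurons were 9521 and 6315 in PTU replicates 3 and 6, 12120 to 17960 at 12 h and 8266 to 27940 at 24 h. The striatal list of 12 markers of projection neurons gave 39860 and 57570 in PTU, 22850 to 37080 at 12 h and 3465 to 59830 at 24 h, and no marker of either list was at 0. TH 24 h replicate 2 held both the highest cortical sum and the lowest striatal sum, and results are therefore given with and without it. In bulk tissue, fewer cells of a type and less RNA per cell cannot be told apart. Normalised counts are counts scaled to 1 effective library size within a tissue.

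Thyroid hormone acts through nuclear receptors, TRα1 and the TRβ forms, that sit on DNA with or without ligand and raise transcription of nearby genes when T3 is bound. Their best-known binding element is a direct repeat of the half-site AGGTCA with 4 bases between the copies, called DR4. In the brain the hormone is needed for the maturation of neurons, myelin and synapses. Nrgn, the postsynaptic calmodulin-binding protein neurogranin, is a classical target in striatum, and Hr, a corepressor, and Klf9, a zinc-finger transcription factor, are among the most widely responsive genes and are given here as reference.

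For 6 of the 10 genes a promoter window of RefSeq (GRCm38.p6) was used, 250 bases before to 50 bases after a start site, and Cyp11a1 had 2 windows. The windows below are shown because Sema7a and Cyp11a1 are neighbours on chromosome 9 and because 1 Cyp11a1 window alone held a half-site. The half-site AGGTCA, on either strand, is in capitals.
Cyp11a1, first window, chr9:57997774-57998073, plus strand: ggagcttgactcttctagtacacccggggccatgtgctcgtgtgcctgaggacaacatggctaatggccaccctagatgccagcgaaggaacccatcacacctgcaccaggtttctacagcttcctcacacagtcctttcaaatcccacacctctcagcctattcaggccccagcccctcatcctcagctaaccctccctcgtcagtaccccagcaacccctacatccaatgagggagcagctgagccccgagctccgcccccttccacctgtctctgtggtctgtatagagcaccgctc
Cyp11a1, second window, chr9:58014702-58015001, plus strand: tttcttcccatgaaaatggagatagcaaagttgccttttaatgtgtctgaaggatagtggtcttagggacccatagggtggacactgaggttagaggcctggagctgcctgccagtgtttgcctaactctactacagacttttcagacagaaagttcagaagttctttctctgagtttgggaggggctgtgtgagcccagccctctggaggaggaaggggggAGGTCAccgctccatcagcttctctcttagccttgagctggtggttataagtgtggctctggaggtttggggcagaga
Sema7a, chr9:57939862-57940161, plus strand: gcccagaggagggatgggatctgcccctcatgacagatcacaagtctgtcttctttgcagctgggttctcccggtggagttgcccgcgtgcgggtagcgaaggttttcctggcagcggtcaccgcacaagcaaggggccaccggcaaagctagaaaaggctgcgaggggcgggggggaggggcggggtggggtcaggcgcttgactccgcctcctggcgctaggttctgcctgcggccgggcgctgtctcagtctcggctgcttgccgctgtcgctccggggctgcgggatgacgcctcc
The half-site of the second Cyp11a1 window began at position 223 of the window, 28 bases before the start site, in the orientation of the gene. No window of the 6 genes held a DR4 of 2 exact half-sites, and near matches were not sought. Among all 32851 promoter windows of that length, 300 bases, 16.3% held a half-site on either strand and 0.015% held an exact DR4. A half-site in 1 of these 7 windows is thus near the background share. An exact DR4 is too rare for its absence from 7 windows to tell anything. The letters are a description of these windows and say nothing of binding. Gls2, Itga7 and Abcd2 had no window in the table, and no window of Camk4 was used.

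In GRCm38 (GENCODE M21) all 10 are protein-coding genes. Gls2 lies at chr10:128194457-128210004 and Itga7 at chr10:128933818-128958282, 0.724 Mb apart, with Wif1 on the same chromosome at chr10:121033960-121100650. Sema7a (chr9:57940112-57962865) and Cyp11a1 (chr9:58006411-58027023) are on the same strand with 43.5 kb between them, and Nrgn is at chr9:37544492-37552904. Hs6st1 lies at chr1:36068400-36106446, Flywch2 at chr17:23776916-23786081 and Abcd2 at chr15:91145871-91191799, while Camk4 is on chromosome 18. Some exons overlap those of other genes. Hs6st1 shares 447 exonic bases with the antisense gene Gm37335, Cyp11a1 145 with the lincRNA Gm17322 on its own strand, Gls2 97 with Spryd4, Camk4 72 with 2310026I22Rik and Itga7 9 with Mettl7b. Whether counting used the strand is not given in the sources used here, so reads in these stretches cannot be assigned to 1 gene.

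Per length of exon, the 10 genes spanned a wide range of levels in PTU striatum. Nrgn was at 227 ± 32.6 RPKM (reads scaled to exon length and library size, ± SD, n = 2) and Camk4 at 33.9 ± 4.65. Hs6st1 (10.8 ± 0.881), Sema7a (9.92 ± 0.823), Flywch2 (6.08 ± 0.0948) and Abcd2 (5.67 ± 1.00) formed a middle group on this scale. Hs6st1 and Sema7a, as well as Flywch2 and Abcd2, lay within 1 SD of each other. Gls2 (0.467 ± 0.0250 RPKM), Itga7 (0.225 ± 0.104), Wif1 (0.111 ± 0.0270) and Cyp11a1 (0.101 ± 0.0118) were low, and among these 4 Itga7 overlapped Wif1 and Wif1 overlapped Cyp11a1 within 1 SD.

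In striatum 9 of the 10 genes were higher in every TH library than in both PTU libraries, at 12 h and again at 24 h, and Camk4 was the exception. Of all 15827 genes tested, 18.9% were likewise higher in every library at 12 h and 9.70% at 24 h. Median log2 changes of the 10 genes were 1.20 at 12 h and 1.49 at 24 h, beside 0.01 and 0.02 over all genes tested. The quasi-likelihood F test of edgeR, with p-values adjusted by Benjamini and Hochberg over all genes tested, called 6 of the 10 higher at 12 h. Of all genes tested, 0.733% passed as higher then and 0.960% in either direction. It also called 6 of the 10 higher at 24 h, against 0.316% higher and 0.348% in either direction among all genes. The 6 at 12 h were Gls2, Wif1, Cyp11a1, Hs6st1, Flywch2 and Sema7a, and at 24 h Abcd2 took the place of Wif1. Since the genes were chosen on this contrast, nothing is read from these counts. The counts at both times rest on the same 2 PTU libraries. With either left out, which leaves 1 control, these calls were lost, as were nearly all calls of the whole table. Without TH 12 h replicate 2 or 3, 2 were called at 12 h, of 14 and 6 in the whole table. Without replicate 4, 3 were called, of 55.

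**Figure D1:**
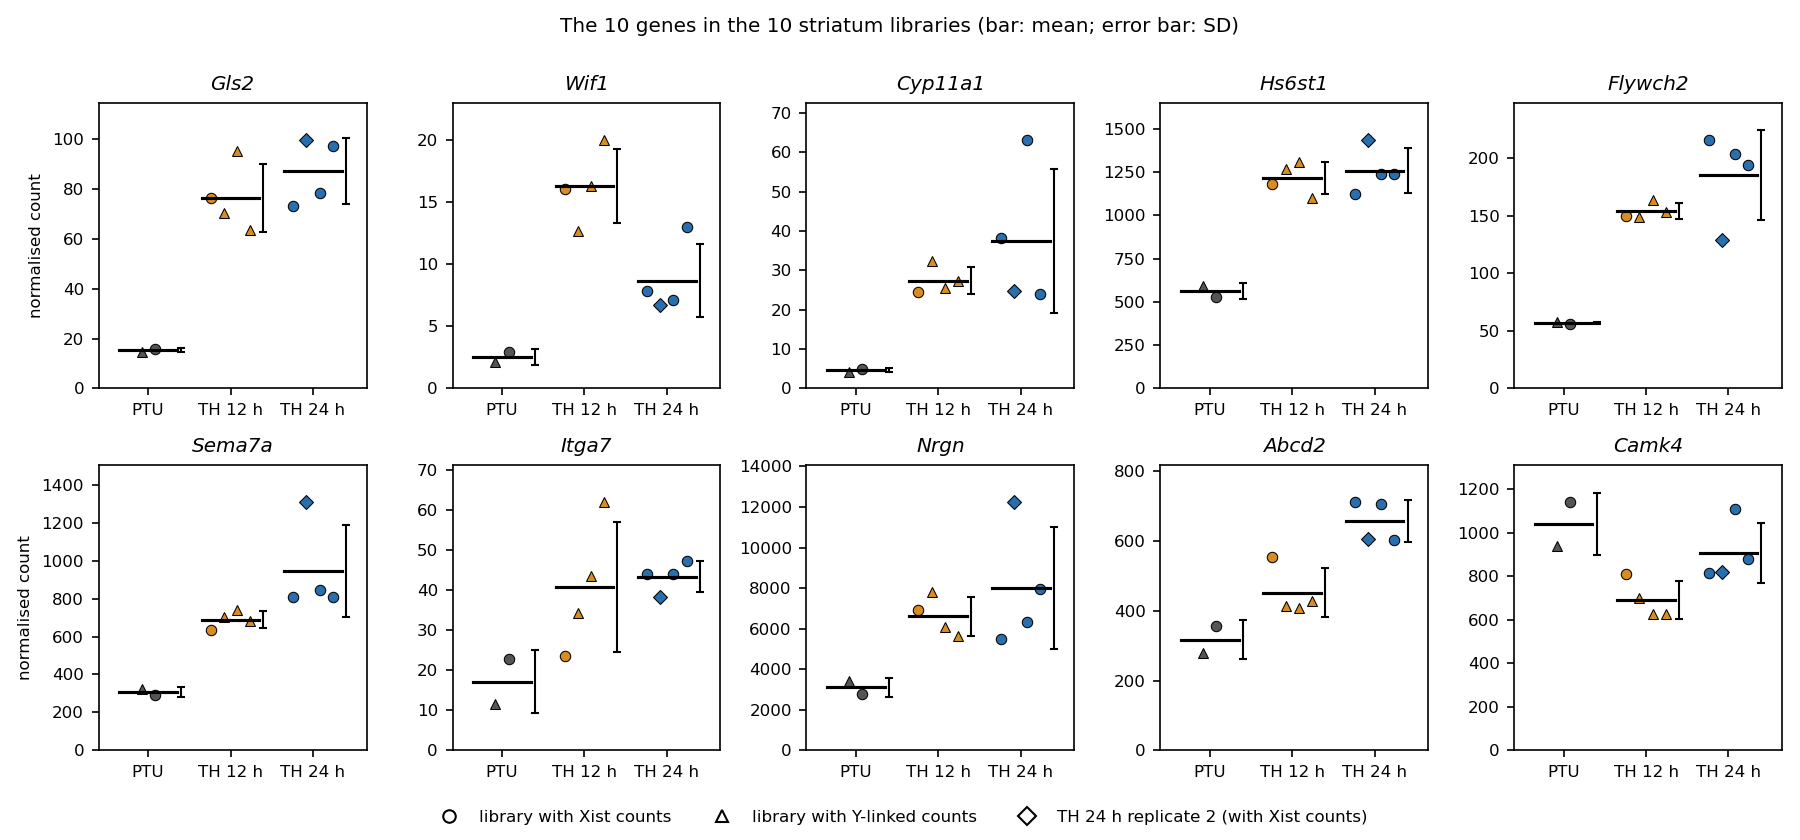
Normalised counts (y axis, linear from 0) of the 10 genes in PTU, TH 12 h and TH 24 h striatum (x axis); each symbol is 1 library, its shape gives whether the library held Xist or Y-linked counts, the diamond is TH 24 h replicate 2, horizontal bars are means and error bars SD. For 9 genes all TH symbols sit above both PTU symbols, and for Camk4 the 12 h symbols, 627.1 to 809, sit below the PTU symbols, 939 and 1141.

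The enzymes and the transporter of metabolism come first. Gls2, the mitochondrial glutaminase that turns glutamine into glutamate, had 14.7 and 15.8 normalised counts in PTU, 76.5, 70.5, 95.2 and 63.7 at 12 h, and 73.3, 99.8, 78.6 and 97.3 at 24 h. The groups did not overlap with PTU, and the TH groups overlapped each other. Its log2 change against PTU was 2.32 ± 0.25 (SE) at 12 h and 2.51 ± 0.25 at 24 h, or 4.98-fold and 5.68-fold. Hr, for comparison, changed by 2.49 ± 0.21 and 2.68 ± 0.21.

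Cyp11a1 encodes the enzyme that cleaves the side chain of cholesterol, the entry step of steroid synthesis. Its raw counts were only 4 and 5 in PTU, 26 to 33 at 12 h, and 39, 22, 53 and 24 at 24 h. All TH libraries were above both PTU libraries, and the 24 h libraries were spread widely, with replicate 3 alone above 50. From the summed counts the ratio to PTU was 5.96 at 12 h (exact 95% interval 3.04 to 13.4) and 8.03 at 24 h (4.11 to 17.9). These intervals cover counting error only, since reads without molecular identifiers are not independent molecules. Its fitted log2 changes were 2.55 ± 0.51 and 2.99 ± 0.50.

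Abcd2, a transporter of very long chain fatty acids in the peroxisomal membrane, had 277.7 and 357.1 normalised counts in PTU, 555, 414, 407 and 426.9 at 12 h, and 710.6, 606.5, 704.8 and 602.9 at 24 h. The 3 groups did not overlap, so it stood higher at 24 h than at 12 h in every library. Its log2 change was 0.51 ± 0.16 at 12 h and 1.05 ± 0.16 at 24 h, and the step from 12 to 24 h was 0.54 ± 0.12. TH 12 h replicate 1, the 12 h library with Xist counts, was the highest of its group, and with that difference between libraries as a term in the fit the step from 12 to 24 h was 0.26.

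Secreted and cell-surface proteins formed a second set. Wif1, a secreted protein that binds Wnt ligands and blocks them, had raw counts of 2 and 3 in PTU, 17, 13, 18 and 22 at 12 h, and 8, 6, 6 and 13 at 24 h. Its mean was lower at 24 h than at 12 h, with a log2 difference of -0.89 ± 0.29, whereas the other 9 genes had a higher mean at 24 h. Without TH 24 h replicate 2 the difference was -0.80 ± 0.32, and Hs6st1 and Nrgn were then slightly lower at 24 h as well, at -0.03 and -0.02. The 12 h and 24 h libraries overlapped at 1 library, TH 24 h replicate 4. The ratio of summed counts to PTU was 6.42 (2.63 to 20.4) at 12 h and 3.46 (1.34 to 11.3) at 24 h, intervals that overlap broadly.

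Sema7a is a semaphorin held at the membrane by a GPI anchor that acts in axon growth through integrins and plexin C1. It had 325.9 and 289.8 normalised counts in PTU, 636.2, 701.7, 739.7 and 680.8 at 12 h, and 810.3, 1308, 847.7 and 809.6 at 24 h. The groups did not overlap, and TH 24 h replicate 2 stood far above the other 24 h libraries. The log2 change was 1.16 ± 0.20 at 12 h and 1.62 ± 0.20 at 24 h, the latter 1.40 ± 0.10 without replicate 2.

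Hs6st1, which adds sulfate to position 6 of glucosamine in heparan sulfate, had 594.2 and 529.2 normalised counts in PTU, 1181, 1267, 1306 and 1098 at 12 h, and 1122, 1435, 1239 and 1236 at 24 h. It was about evenly raised at both times, by 1.11 ± 0.12 and 1.16 ± 0.12 on the log2 scale, and the step from 12 to 24 h was 0.05 ± 0.09. Its antisense partner Gm37335 could contribute reads to it, as said above.

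Itga7, the laminin-binding integrin α7 best known from muscle, had 11.5 and 22.8 normalised counts in PTU, 23.6, 34.3, 43.5 and 61.9 at 12 h, and 44.0, 38.1, 44.1 and 47.2 at 24 h. The gap between groups at 12 h was small, with TH 12 h replicate 1 just above PTU replicate 6. These are both libraries with Xist counts, and their ratio was 1.04, whereas the 3 TH 12 h libraries with Y-linked counts averaged 4.04 times PTU replicate 3. The log2 changes were 1.24 ± 0.39 at 12 h and 1.33 ± 0.39 at 24 h.

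Flywch2, a small protein with a FLYWCH zinc finger, had 57.6 and 56.4 normalised counts in PTU, 150.1, 148.8, 164.1 and 153.8 at 12 h, and 216, 128.9, 203.6 and 194.6 at 24 h. All 12 h libraries lay within a narrow band, and the 24 h libraries did so too except replicate 2, which fell below the 12 h group. The log2 change was 1.43 ± 0.20 at 12 h and 1.70 ± 0.20 at 24 h, and 1.83 ± 0.13 at 24 h without replicate 2.

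The genes tied to calmodulin, Nrgn and Camk4, stood on opposite sides of PTU at 12 h. Nrgn had 3417 and 2787 normalised counts in PTU, 6928, 7799, 6096 and 5633 at 12 h, and 5484, 12240, 6330 and 7941 at 24 h. Every TH library was above both PTU libraries, and TH 24 h replicate 2 was the highest of the 10. Its log2 change was 1.09 ± 0.29 at 12 h and 1.37 ± 0.29 at 24 h, and 1.07 ± 0.18 at 24 h without replicate 2. Camk4, a calmodulin-dependent kinase of neuronal nuclei, had 939 and 1141 in PTU, 809, 700.7, 627.3 and 627.1 at 12 h, and 815.2, 820.6, 1108 and 877.8 at 24 h. It was lower in all 12 h libraries, as were 17.5% of genes tested, and overlapped PTU at 24 h. Its log2 changes were -0.59 ± 0.15 and -0.20 ± 0.15.

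The cortical and striatal marker sums moved with these values. At 12 h the cortical sum was above PTU in all 4 libraries, with a mean 2.00 times that of PTU, and the striatal sum was below PTU in all 4, at 0.549 times, while astrocyte sums stayed between 11770 and 14250 in all 10 libraries. Nrgn and Camk4 are expressed in neurons of both regions. The part of these sums in the values of any of the 10 genes was not tested. In TH 24 h replicate 3 the cortical sum, 8266, lay between the PTU libraries, and the striatal sum, 59830, was above both. There, as in every TH library, 9 of the genes were above both PTU libraries, and they were chosen in part on these libraries. Gls2 was at 5.15, Cyp11a1 at 13.8, Flywch2 at 3.57, Sema7a at 2.75 and Nrgn at 2.04 times the PTU mean. These are values of 1 library, and nothing is read from them. Camk4, at 1.07 times the PTU mean, lay between the PTU libraries there.

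Values within each kind of library were also compared. Among the libraries with Y-linked counts, 9 of the 10 genes were higher in all 3 TH 12 h libraries than in PTU replicate 3. Among those with Xist counts, 9 of the 10 were higher in TH 12 h replicate 1 and in all 4 TH 24 h libraries than in PTU replicate 6. Camk4 was the exception in both. As said above, 9 genes were higher in every TH library than in both PTU libraries. The counts of this split were therefore fixed in advance, and nothing is read from them. Gls2 at 12 h was 4.83 times PTU in the first library pair with Xist counts and 5.21 times among the libraries with Y-linked counts, Hs6st1 2.23 and 2.06 times, and Nrgn 2.49 and 1.90 times. With 1 PTU library of each kind, these ratios have no replicate error of their own. With the kind of library as a term in the fit, edgeR called 3 of the 10 genes at 12 h of 60 in the whole table, and 2 at 24 h of 3.

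TH 24 h replicate 2 did not shift the 10 genes in 1 direction. It was the highest of the 10 libraries for Gls2, Hs6st1, Sema7a and Nrgn, at 1.20, 1.20, 1.59 and 1.86 times the mean of the other 24 h libraries. For Wif1, Flywch2 and Itga7 it lay below the other 24 h libraries, at 0.721, 0.630 and 0.846 times their mean. Cyp11a1, Abcd2 and Camk4 were within their range. Leaving it out changed log2 changes at 24 h by between -0.30 for Nrgn and 0.13 for Cyp11a1, and no gene changed sign. Some errors narrowed, from ± 0.20 to ± 0.10 for Sema7a and from ± 0.29 to ± 0.18 for Nrgn. Others widened slightly, from ± 0.25 to ± 0.26 for Gls2, ± 0.49 to ± 0.53 for Wif1 and ± 0.39 to ± 0.41 for Itga7. Without it edgeR called 8 of the 10 genes at 12 h and 7 of them at 24 h, beside 7.93% and 0.725% of all genes tested. The genes gained were Nrgn at both times and Camk4 at 12 h.

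**Figure D2:**
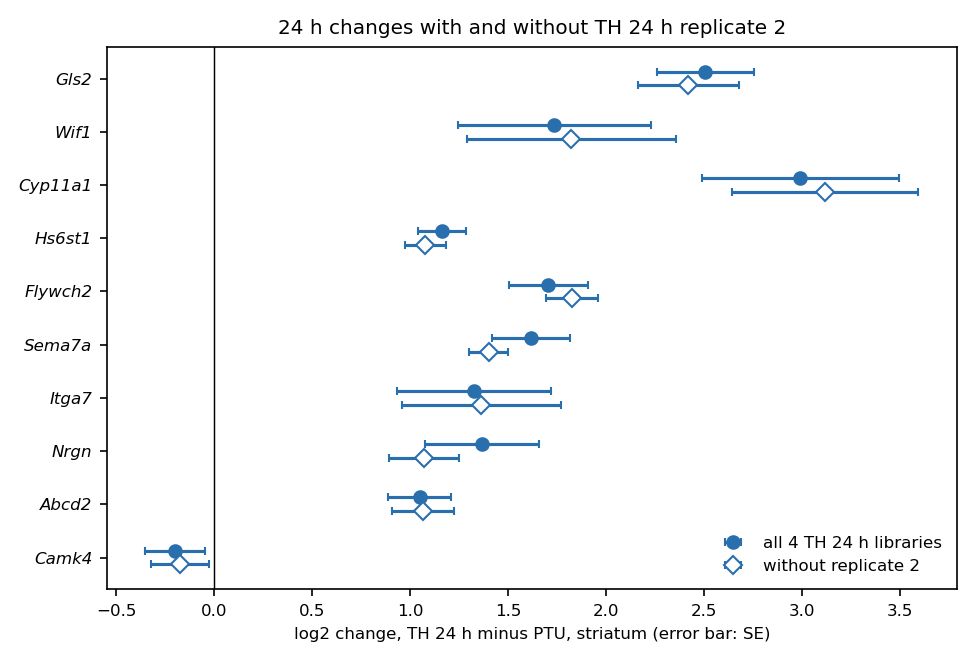
Log2 change of the 10 genes at TH 24 h against PTU in striatum (x axis), with all 4 TH 24 h libraries (filled circles) and without replicate 2 (open diamonds); error bars are SE. Nrgn moves from 1.37 to 1.07 and Sema7a from 1.62 to 1.40, and the other genes move by 0.13 or less.

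Between 12 h and 24 h in striatum, edgeR called none of the 10 genes, as 0% of all genes tested were called. An unadjusted p under 0.05 was seen for 4 of the 10 genes and 2309 genes in all, and DESeq2 called 1 of the 10, Abcd2, and 261 genes in all. Sema7a, Abcd2 and Camk4 were higher in every 24 h library than in every 12 h library, as were 4.43% of genes tested. Their log2 steps were 0.45 ± 0.15, 0.54 ± 0.12 and 0.39 ± 0.13. The Sema7a step was 0.24 ± 0.08 without TH 24 h replicate 2, and with the kind of library in the fit the Camk4 step was 0.17 and the Abcd2 step 0.26.

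In WAT, 6 of the 10 genes had a mean normalised count above 10 and were tested, namely Hs6st1, Sema7a, Itga7, Nrgn, Abcd2 and Camk4. Abcd2 alone was called, and it was lower after TH at both times. At 6 h 3.05% of genes were called lower and 7.23% called in all, and at 24 h 9.62% and 17.1%. Hr and Klf9 rose in the same libraries, Hr by 3.56 ± 0.18 at 6 h and 4.19 ± 0.19 at 24 h (adjusted p = 1.01e-06 and 2.15e-07 with edgeR), and Klf9 by 1.94 ± 0.17 and 1.30 ± 0.17 (adjusted p = 4.09e-05 and 0.000362).

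Abcd2 was the most abundant of the 10 genes in WAT, at 58.8 ± 10.6 RPKM in PTU (SD, n = 4). Its normalised counts were 7127, 9516, 6621 and 6768 in PTU, 5482, 5807, 5664 and 5548 at 6 h, and 4771, 4540, 4983 and 4740 at 24 h. The 3 groups did not overlap, and each later group was lower than the one before it. Being lower than PTU in every library held for 6.07% of genes at 6 h and 10.3% at 24 h, and being lower at 24 h than at 6 h for 11.8%. The log2 change was -0.42 ± 0.12 at 6 h (adjusted p = 0.0469, edgeR) and -0.66 ± 0.12 at 24 h (adjusted p = 0.00246, edgeR). The call at 24 h held whichever library was left out, with adjusted p at most 0.00909, whereas that at 6 h was lost on leaving out any of 9 of the 12 libraries, with adjusted p up to 0.113.

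Adipocyte markers were also lower than PTU at 24 h, whereas at 6 h they overlapped PTU, with a mean of 0.931 times its mean. The summed counts of 8 adipocyte markers, none of them at 0, were 545400 to 709200 in PTU, 520900 to 666000 at 6 h and 424100 to 533000 at 24 h, so at 24 h all libraries were below PTU, with a mean of 0.782 times the PTU mean against 0.634-fold for Abcd2. Their part in the fall of Abcd2 was not tested. The step from 6 to 24 h was -0.24 ± 0.12 for Abcd2 (adjusted p = 0.221, edgeR). No gene of the 6 was called for that step, where 7.41% of genes tested were called, none had an unadjusted p under 0.05, and DESeq2 called 0.

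**Figure D3:**
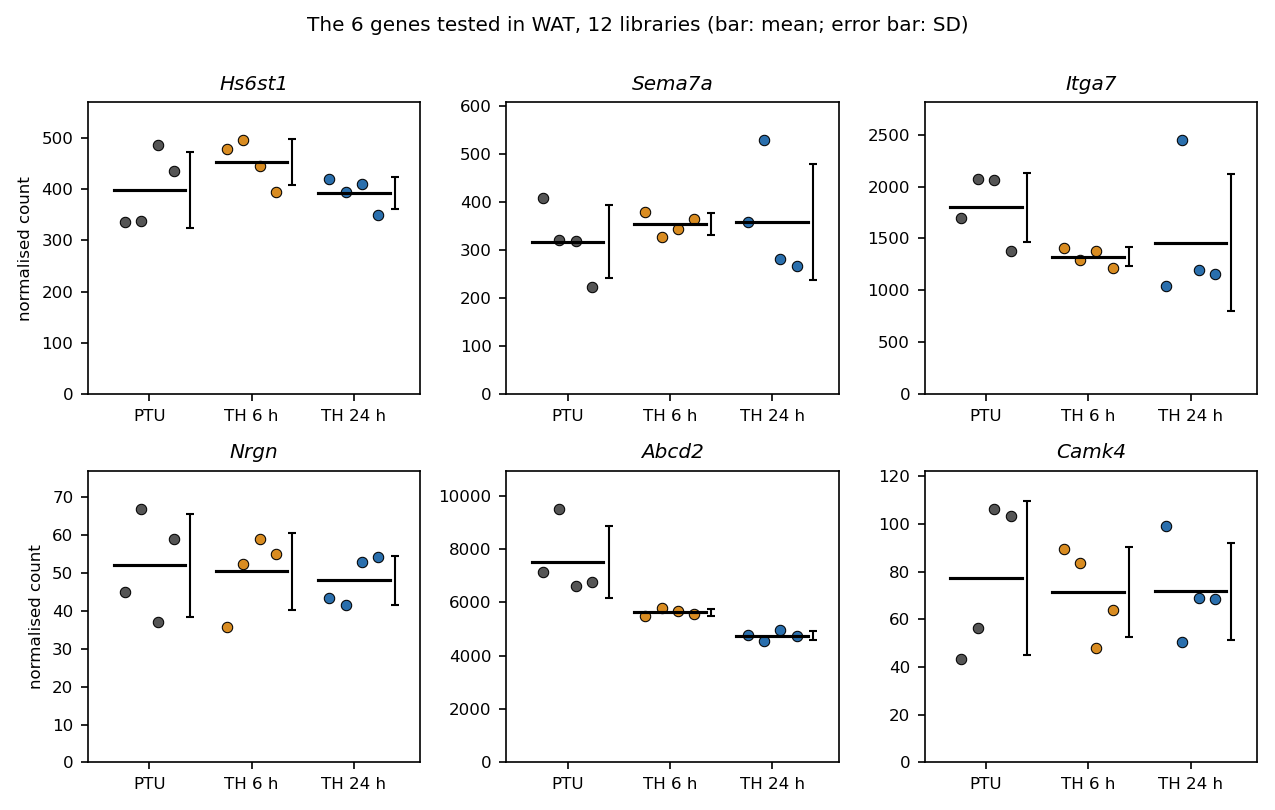
Normalised counts (y axis, linear from 0) of the 6 genes tested in WAT for PTU, TH 6 h and TH 24 h (x axis), 4 libraries per group; bars are means and error bars SD. The Abcd2 groups step down without overlap, and the 5 other genes overlap between all groups.

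Itga7 was the second gene by level in WAT, at 10.4 ± 1.92 RPKM in PTU. It had 1692, 2072, 2059 and 1375 normalised counts in PTU, 1412, 1288, 1381 and 1215 at 6 h, and 1040, 2446, 1197 and 1156 at 24 h. TH 24 h replicate 2 stood above all other libraries. The log2 change was -0.44 ± 0.24 at 6 h (adjusted p = 0.259, edgeR) and -0.30 ± 0.24 at 24 h (adjusted p = 0.406), but -0.67 without that library (adjusted p = 0.00667). Skeletal muscle markers differed widely between WAT libraries, with summed counts of 10 markers from 1038 to 580600. TH 24 h replicate 2, with the highest Itga7 count, also had the highest muscle sum of its group, 317400 against 42730 to 196100. In the PTU group the order was the other way, as replicate 4, with the highest sum, had the lowest Itga7 count and replicate 2, with a sum of 2455, the highest. The part of muscle RNA in the Itga7 values was not tested.

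The other tested genes did not pass the test in WAT. Hs6st1 had a mean of 398.7 ± 74.2 normalised counts in PTU (SD, n = 4), 453.1 ± 44.2 at 6 h and 392.9 ± 31.4 at 24 h, with log2 changes of 0.18 ± 0.13 and -0.02 ± 0.13. Sema7a had 317.8 ± 76.3, 354.7 ± 22.9 and 359.3 ± 120.4, with changes of 0.16 ± 0.22 and 0.18 ± 0.22. Nrgn was at 52.1 ± 13.5, 50.5 ± 10.2 and 48.1 ± 6.46 normalised counts, with changes of -0.03 ± 0.22 and -0.11 ± 0.22. Camk4 was at 77.3 ± 32.3, 71.4 ± 18.9 and 71.9 ± 20.3, with changes of -0.12 ± 0.31 and -0.11 ± 0.31. Adjusted p-values of these 4 genes lay at or above 0.395 at both times (edgeR).

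The 4 remaining genes were near the limit of detection in WAT. Raw counts were 0 to 7 for Gls2, 3 to 10 for Wif1, 3 to 13 for Flywch2 and 4 to 18 for Cyp11a1 in a library. Ratios of summed counts at 24 h to PTU were 1.49 for Gls2 (95% counting interval 0.707 to 3.27), 0.933 for Wif1 (0.517 to 1.68) and 1.10 for Flywch2 (0.602 to 2.01). For Cyp11a1 the ratio was 0.642 at 6 h (0.409 to 1.00) and 0.609 at 24 h (0.379 to 0.966), with PTU and TH libraries overlapping at both times. The rises seen in striatum for Gls2, Cyp11a1 and Flywch2 were thus not seen in WAT at this depth, but the tissues were sampled at different early times and no test compared them.

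**Figure D4:**
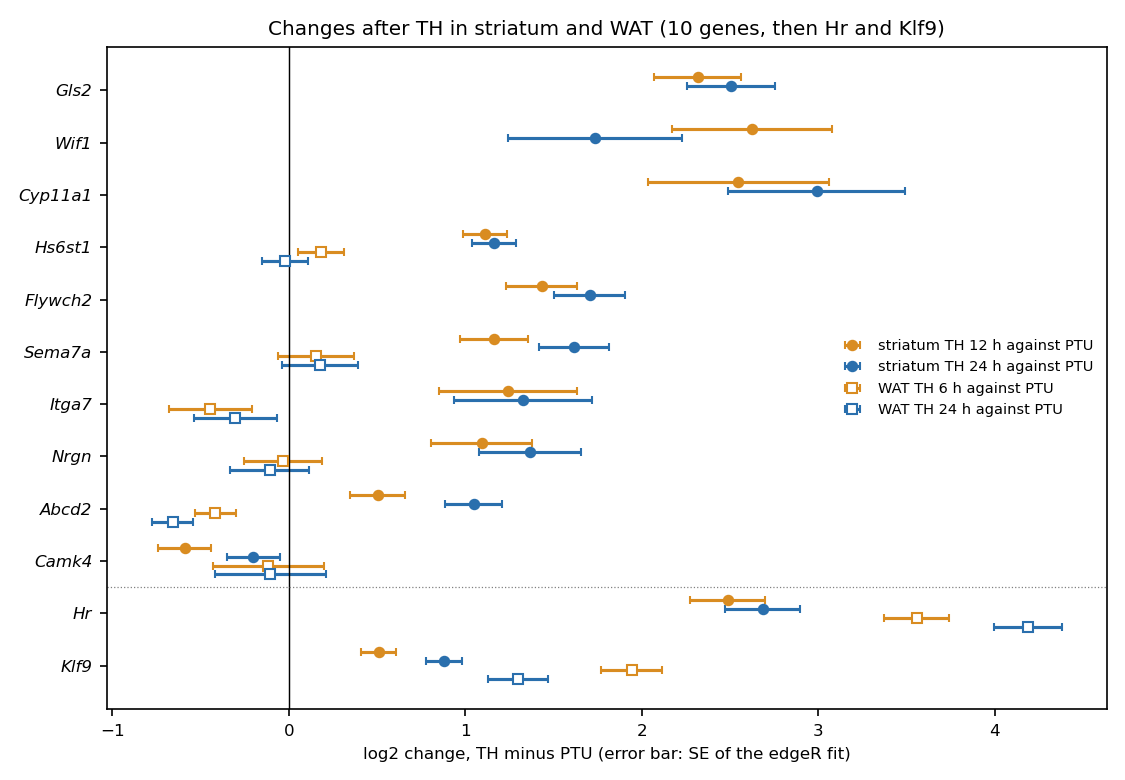
Log2 change after TH against PTU (x axis; error bars SE of the edgeR fit) for the 10 genes and for Hr and Klf9 below the dotted line; filled circles are striatum and open squares WAT, orange the earlier and blue the later time. Gls2, Wif1, Cyp11a1 and Flywch2 have no WAT symbol because they were not tested there; Abcd2 lies at 1.05 in striatum and -0.66 in WAT at 24 h.

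Other genes of the same pathways were counted from lists made for each role. The shares of all genes called apply to every list below. In striatum they were 0.960% at 12 h and 0.348% at 24 h, or 7.93% and 0.725% without TH 24 h replicate 2. In WAT 3.05% were called lower at 6 h and 9.62% at 24 h. Of 26 tested hormone-responsive brain genes beside the 10, 3 were called higher and 1 lower at 12 h in striatum, and 4 higher and 1 lower at 24 h. Without TH 24 h replicate 2 these counts were 9 higher and 2 lower at 12 h, and 5 higher and 1 lower at 24 h, in a fit that calls more genes in all, as said above. The median log2 changes of the list were 0.36 and 0.43 (0.35 and 0.22 without that library), against 0.01 and 0.02 over all genes. Beside Hr, those named by rank were Kcnj10, the potassium channel Kir4.1 of glia (1.19 ± 0.21 and 1.29 ± 0.21), the collagen gene Col6a2 (-0.95 ± 0.16 at 12 h) and Klf9 (0.88 ± 0.10 at 24 h). In WAT, where 4.18% of all genes were called higher at 6 h and 7.45% at 24 h, the same list had 4 higher and 1 lower of 23 tested at 6 h, and 6 higher and 5 lower at 24 h. There the clock output gene Dbp rose by 4.68 ± 0.43 at 6 h (adjusted p = 4.3e-05, edgeR) and the guanylate-binding protein gene Gbp3 by 1.55 ± 0.15 at 24 h (adjusted p = 4.33e-05, edgeR). The part of the time of day in the Dbp value was not tested.

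Around Gls2, of 18 tested genes of glutamine and glutamate metabolism 1 was called higher in striatum at 12 h and none at 24 h, with medians of 0.10 and 0.07. It was Slc38a3, a glutamine transporter of astrocytes, at 0.82 ± 0.13, and without TH 24 h replicate 2 there were 2 at 12 h. In WAT 3 of 15 were called higher at each time, with 1 lower at 6 h and 2 at 24 h. Of all genes, 4.18% were called higher at 6 h and 7.45% at 24 h. Slc1a5, a neutral amino acid transporter that carries glutamine, rose by 1.91 ± 0.11 at 6 h and 1.48 ± 0.11 at 24 h (adjusted p = 1.24e-06 and 8.87e-06, edgeR), and Gpt2, a mitochondrial alanine aminotransferase, by 1.05 ± 0.16 at 6 h (adjusted p = 0.0019, edgeR).

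Around Hs6st1, 1 of 23 tested genes of heparan sulfate synthesis was called higher in striatum at 12 h, Hs3st1 (1.63 ± 0.29), a 3-O-sulfotransferase, and none at 24 h. Without TH 24 h replicate 2, 5 were called higher at 12 h. That fit called 1257 of all 15857 genes tested (7.93%), 747 of them higher. In WAT Sulf2, an enzyme that removes 6-O-sulfate at the cell surface, rose by 0.46 ± 0.12 at 6 h (adjusted p = 0.0317, edgeR) and fell at 24 h by 0.50 on the log2 scale (adjusted p = 0.0108). It was 1 of 4 genes of 17 tested that were called lower at 24 h, as were 9.62% of all genes. Around Sema7a, Sema6c (1.60 ± 0.32) was the 1 gene of 27 semaphorins and receptors called in striatum at 12 h, and none was called at 24 h. Without TH 24 h replicate 2, 5 of the 27 were called higher at 12 h, in the fit that called 7.93% of all genes. Sema3c and Sema6d fell in WAT at 6 h, by 1.33 and 1.16 on the log2 scale (adjusted p = 0.00182 and 0.000616, edgeR).

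Around Abcd2, 1 of 21 tested genes of peroxisomal fatty acid transport and oxidation was called in striatum at 12 h, Crot, the peroxisomal carnitine octanoyltransferase, at -0.71 ± 0.12, and none at 24 h. Without TH 24 h replicate 2, 1 was called higher and 1 lower at 12 h. In WAT, where 4.18% of all genes were called higher at 6 h, 2 of the 23 tested were. These were Acaa1a, a peroxisomal thiolase (0.58 ± 0.12, adjusted p = 0.0111, edgeR), and Abcd3, a peroxisomal ABC transporter of the same subfamily as Abcd2 (0.67 ± 0.19, adjusted p = 0.0487, edgeR). Abcd2 and Abcd3 thus moved in opposite directions in WAT at 6 h, although both calls lay close to the threshold. By 24 h there were 3 called higher and 5 lower, with Acsl1, a long-chain acyl-CoA synthetase, at -1.91 ± 0.26 (adjusted p = 0.000505, edgeR). Of all genes, 7.45% were called higher and 9.62% lower at that time.

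The lists around the other genes held few or no calls in striatum. None of 19 tested Wnt inhibitors and feedback genes, 9 steroid synthesis genes, 24 integrins and laminins or 22 calmodulin genes was called by edgeR at either time. Without TH 24 h replicate 2 the Wnt list had 1 called higher and 1 lower at 12 h and the calmodulin list 2 lower, with 0 at 24 h in all 4 lists. In WAT 1 Wnt feedback gene, Apcdd1, was called lower at 24 h (-1.54 ± 0.23, adjusted p = 0.000803, edgeR). The steroid list had Por, the reductase that feeds electrons to microsomal cytochromes P450, higher at 6 h (1.29 ± 0.16, adjusted p = 0.000443, edgeR), and Hsd11b1, which regenerates active glucocorticoid, lower at 24 h (-1.37 ± 0.26, adjusted p = 0.00424, edgeR). Itgb5 and Itga6 were the 2 of 23 integrins and laminins called in WAT at 24 h, both lower.

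Sema7a and Cyp11a1 lie next to each other, so the genes around them were listed. Within 200 kb of the stretch from Sema7a to Cyp11a1 the annotation held 18 gene models, of which 12 were tested in striatum, 10 of them beside the pair. Gm17322, a lincRNA, starts between Sema7a and Cyp11a1 and runs into the first part of Cyp11a1 on the same strand. It was at 51.0 normalised counts in PTU, 197 at 12 h and 244.9 at 24 h, with log2 changes of 1.94 ± 0.32 and 2.26 ± 0.33. The first RefSeq window of Cyp11a1 covers the start of Gm17322, so the annotations divide these exons differently and reads of the pair cannot be fully told apart. Ubl7, upstream of Sema7a, changed by 0.58 ± 0.15 and 0.35 ± 0.15, and Stra6, downstream of Cyp11a1, by -0.02 ± 0.26 and -0.38 ± 0.26. Islr2 was called at 12 h (0.88 ± 0.13), and Gm17322 at both times. The other 8 were not called at either time, among them Islr (1.69 ± 0.83 at 12 h) and 1600029O15Rik (2.09 ± 0.58), whose errors were wide.

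**Figure D5:**
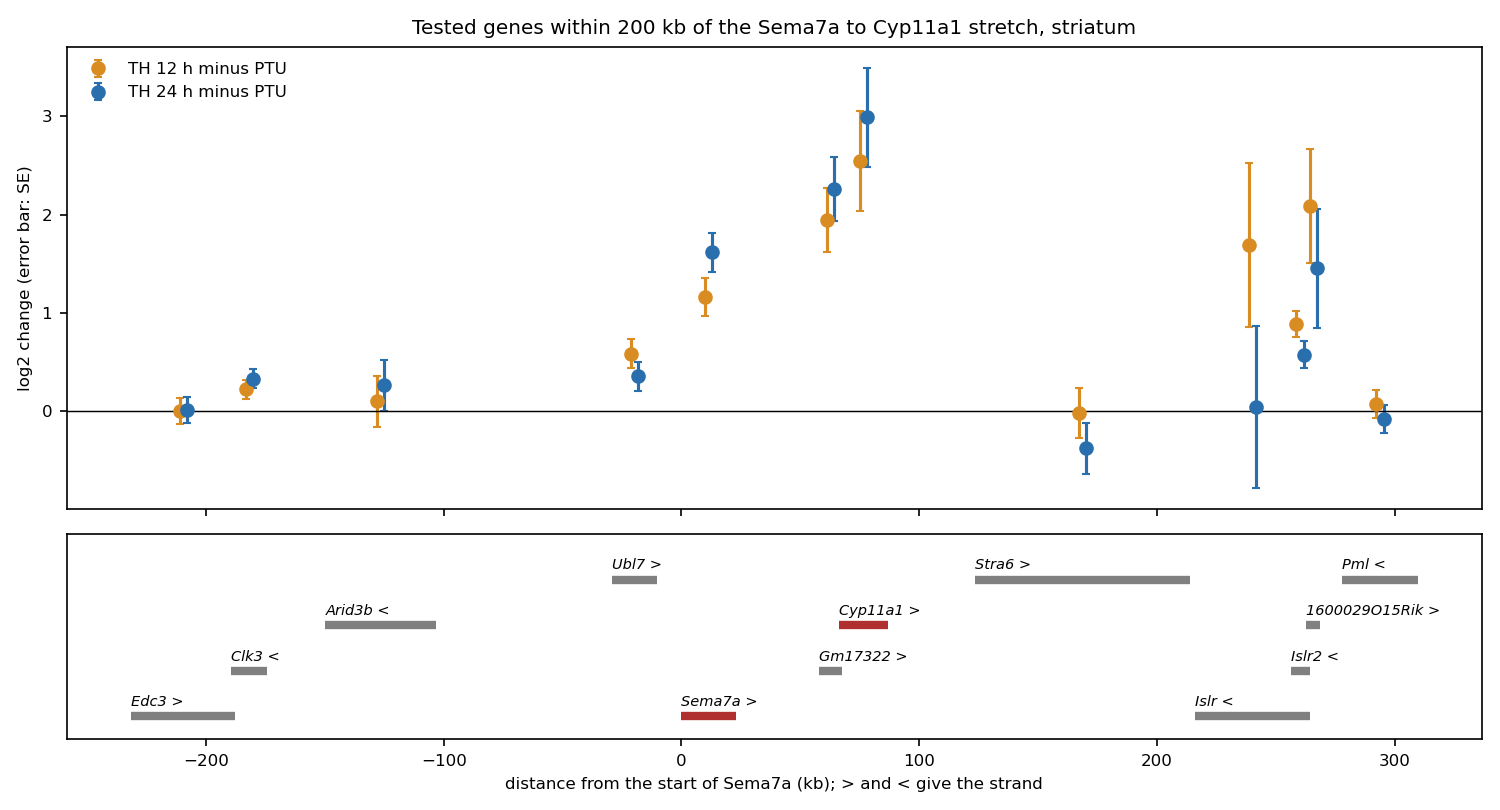
Log2 change in striatum at 12 h and 24 h after TH against PTU (upper panel, error bars SE) for the tested genes within 200 kb of Sema7a and Cyp11a1, by distance from the start of Sema7a in kb; the lower panel draws the gene bodies, with the pair in red. Sema7a, Gm17322 and Cyp11a1 stand above their nearest neighbours Ubl7 and Stra6.

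For each of the 10 genes the gene with the most similar pattern over the 10 striatum libraries was found by the root mean square (RMS) difference of mean-centred log2 values scaled to library size (prior count 2), among 15826 others. That of Gls2 was Hr, at an RMS difference of 0.243 log2 units, and that of Abcd2 was Klf9, at 0.173. Loxl1, a lysyl oxidase, was nearest to Wif1 (0.300), Gm17322 to Cyp11a1 (0.317), Spsb1 to Hs6st1 (0.135) and Igsf9 to Flywch2 (0.172). Cwh43 was nearest to Sema7a (0.204), Deptor to Itga7 (0.205), the GABA-B receptor subunit gene Gabbr2 to Nrgn (0.178) and the synaptic gene Cplx2 to Camk4 (0.098). The libraries share tissue composition and depth, so a close pattern is a description only.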

How the data were processed

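RNA-seq counts were analysed for 10 libraries of striatum and 12 of WAT. Per the labels and the study's methods, RNA was extracted with the RNeasy kit (striatum) or Trizol (WAT), the Lexogen SENSE kit for total RNA served for library preparation, and sequencing was on a NextSeq 500. The authors aligned reads to mm10 with Bowtie2 2.2.6.2 (submitters' processing notes), removed alignments of quality under 10 and counted reads per gene with htseqcount, and they deposited whole-number counts, not normalized, 1 table per tissue. The annotation and the strand setting are not given in the sources used here.

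Every column mapped to a sample. Rows whose gene name had become a date were left out of library sizes and tests (14 in striatum, at most 0.201% of a library, and 15 in WAT, at most 0.0825%). Genes with a mean normalised count over 10 were tested, 15827 in striatum and 17928 in WAT. TMM factors (0.957 to 1.03 and 0.917 to 1.11), the fit and the two-sided quasi-likelihood F test came from edgeR 4.0.16 in R 4.3.3, with the 3 groups of a tissue in 1 fit, and p-values were adjusted over all genes tested at a threshold of 0.05. SE was the log2 change divided by the root of F. RPKM used exon lengths of GENCODE M21. Counting intervals are exact at 95% and cover counting error only. The code was tested on simulated data.

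The 10 genes and all lists were chosen with earlier results of these data known. Named beside the 10 genes were Hr, Klf9, at most 3 called genes of each list by smallest p in a contrast, the gene nearest in pattern to each, and tested genes around Sema7a and Cyp11a1, of which the few given values were picked after these were seen. Alternatives were DESeq2 1.42.0, its size factors, no low-count filter, 2 groups alone, a replicate block, the kind of library or muscle markers as a covariate, WAT without rows that copy another, and each library left out. Samples with the same replicate number did not deviate together, so the numbers were not used as pairs.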

Additional observations from a re-analysis of the deposited data

Results flagged for a closer look

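Of 50 groups of 4 libraries examined for the 10 genes, 5 held a library far from the rest of its group by Dixon's criterion, which chance flags in about 1 in 20 groups. Sema7a in striatum TH 24 h replicate 2 was at 1308 normalised counts, with the other 24 h libraries at 809.6 to 847.7. Abcd2 in striatum TH 12 h replicate 1 was at 555.0, with the others at 407.0 to 426.9. In WAT, Itga7 in TH 24 h replicate 2 was at 2446 with the others at 1040 to 1197, and the skeletal muscle marker sum of that library was 317400. The other flagged values rest on few counts, Gls2 at 2.237 in WAT TH 6 h replicate 1 (others 4.826 to 5.355) and Flywch2 at 14.39 in WAT TH 24 h replicate 4 (others 3.859 to 4.849).

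Abcd2 moved in opposite directions in the tissues at 24 h. Its log2 change was -0.658 in WAT, where each TH library lay below every PTU library, and 1.047 in striatum, where each TH library lay above. The difference between tissues was not tested, as the tables were counted and normalised apart.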

How the results depend on the processing

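In striatum, leaving out 1 TH library gave 2 to 8 of the 10 genes called at 12 h and 4 to 7 at 24 h. Without either PTU library, fits with 1 control each, the calls of both times were lost. The cause of this loss was not tested. At 12 h, 2 were called without TH 12 h replicate 2 or 3 and 3 without replicate 4, beside 14, 6 and 55 genes in the whole table. With the kind of library as a covariate 3 were called at 12 h and 2 at 24 h, and fitting PTU and TH 24 h without the 12 h group gave 0 at 24 h. Between 24 h and 12 h DESeq2 called 1 and leaving out a library 0. Over all genes tested in striatum at 12 h and 24 h, calls were 860 and 203 with DESeq2, 1442 and 0 with 2 groups alone, and 60 and 3 with the kind of library, beside 152 and 55 in the main analysis.

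The replicate block used numbers that do not pair the samples (r from -0.395 to 0.267 over 6 pairs in striatum and -0.472 to 0.394 over 12 in WAT). Against PTU in striatum, the block left 0 of the 10 genes called at either time and 0 genes over the whole table. Between 24 h and 12 h it called 7 genes over the whole table and 0 of the 10. In WAT it left 0 of the 6 tested genes at 6 h and Abcd2 at 24 h.

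In WAT at 6 h, Abcd2 was not called without a low-count filter, with 2 groups alone or with the block. None of the genes followed here was called in those fits, and leaving out a library gave 0 to 1. At 24 h Abcd2 was called in all 12 fits without a library and all 7 others, and leaving out a library gave 1 to 2 called, the second being Itga7 without TH 24 h replicate 2. For 24 h against 6 h, 2 groups alone called 1, Abcd2. Genes not called changed sign when a library was left out. At 6 h Nrgn ranged from -0.17 to 0.12 and Camk4 from -0.31 to 0.085. At 24 h Hs6st1 ranged from -0.10 to 0.089, Sema7a from -0.065 to 0.32, Nrgn from -0.24 to 0.037 and Camk4 from -0.31 to 0.10. Over all genes, WAT calls at 6 h, 24 h and 24 h against 6 h were 2145, 3768 and 2169 with DESeq2, 834, 2037 and 2444 with 2 groups alone and 886, 2312 and 778 with the block, beside 1296, 3060 and 1329. The cause of these changes was not tested. Low counts limit what can be said of Wif1 and Cyp11a1 in both tissues and of Gls2 and Flywch2 in WAT.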
